A study of Mus musculus with 16 samples.

Results

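Ly6a-high and Ly6a-low cells are the top and the bottom 25% of the cells of mouse colon tumour organoids, chosen by the share of Ly6a among a cell's UMIs (unique molecular identifiers, 1 for each captured RNA molecule) and ranked within each library. A cell entered the ranking with 1000 or more genes, 5000 or more UMIs and no more than 20% of UMIs from mitochondrial genes, which kept 2544 of 3618 barcodes in the control library and 1405 of 2078 in the knockout library. The control library gave 636 Ly6a-high and 636 Ly6a-low cells, and the knockout library 351 and 351. Together these are 1974 of 3949 kept cells and of 5696 barcodes. The 1272 control and 703 knockout cells between the 2 groups serve here to show the levels in between.

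The organoids were grown from colon tumours that the carcinogen azoxymethane and the irritant dextran sodium sulfate (AOM/DSS) had induced, and were at passage 14. Organoids are cultures in which epithelial cells grow as hollow or budding bodies in a gel. The labels call the control minus TAM, with genotype KMT9wt/wt, and the knockout plus TAM, with KMT9ko/ko, and the names of the deposited tables add day 5. TAM is not explained in the labels, and its own effect cannot be told apart from that of the knockout. Both groups share the tumour model, the passage and the library chemistry. The study's design text counts 2 samples, a control and a knockout, and 1 matrix was deposited for each. The labels list 16 records, 8 for each group, without saying what sets the 8 apart, and the matrices do not map cells to records. Each matrix is therefore treated as 1 library, and no test across replicates was run.

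Ly6a encodes Sca-1, a small protein that is anchored to the outer cell membrane by a lipid and belongs to the Ly6 family. In the healthy adult intestine it is scarce, and it appears in epithelium that regenerates after injury, where genes of the fetal gut are switched on again and crypt stem cell genes driven by Wnt are reduced. Interferons raise Ly6a in several tissues. N6amt1 and Trmt112 encode the subunits of KMT9, an enzyme that methylates histone H4.

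The matrices held 72223578 control and 38860718 knockout UMIs, of which the kept cells held 97.6% and 97.0%. N6amt1 stood at 42.4 and 9.19 CPM (UMIs per 1000000 UMIs, both summed over the cells of a group) in the control and knockout Ly6a-low cells, and at 30.03 and 3.74 CPM in the Ly6a-high cells, so it was lower in the library labelled knockout in both. The sources do not name the deleted exon, and tags from the 3′ end may lie outside it. Ly6a-high cells were deeper than Ly6a-low cells, with a median of 29415 against 19441 UMIs in the control and 30203 against 20458 in the knockout library. Thinned to 5000 UMIs, they held a median of 2033 against 2020 and 1935 against 1999 genes. The median mitochondrial share was 2.77% against 3.19% and 2.42% against 3.64%. Of the barcodes, 498 occurred in both matrices. They mark 64 of the Ly6a-high and 12 of the Ly6a-low control cells, but 88 (25.1%) and 103 (29.3%) of those of the knockout library, in nearly all of which the control copy was the smaller. Leaving these cells out moved the log2 ratio of high over low cells by more than 1.5-fold for 1 of 168 named genes in the control and 41 of 167 in the knockout library, and the values are given below where they moved most or ended a call. The part of depth, mitochondrial share and shared barcodes in the differences was not tested. All 15 epithelial marker genes on the list used here were measured. None of the 15 immune and none of the 11 fibroblast markers reached 10 CPM, with 11 and 8 of them at 0 in all 4 groups, and their summed levels were 7.92 to 17.2 CPM and 0.648 to 2.41 CPM. Of 9 endothelial markers only Cdh5 was measured (14.9 and 1.90 CPM in low and high control cells, 18.9 and 11.1 CPM in knockout cells). No source used here says whether reads were assigned by strand, so counts of genes that overlap another on the opposite strand are uncertain. Among the genes named below these include Anxa1, Anxa8, Krt6a, Krt7, Tgm1, Cysrt1, Cav2, Edn1, Ceacam1, Cxcl16, Tspan8, Notum, Axin2, Prox1, Lef1, Tnfrsf19, Jun, Cdkn1c, Lgals2, Mt2, Cdc20, Ccna2, B2m, Pfkp, Kdm6b, Ezh2, Lgr5, Lypd6b, Cdh5 and Trmt112. Slc7a11, Aldh1a1, Me1, Kif20a and Ankrd37 belong to them as well.

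Ly6a was graded over the cells. It stood at 110.1, 672, 1743 and 3608 CPM in the 4 rank groups of the control library, from the lowest to the highest 25% of cells, and at 105.8, 760, 1891 and 3958 CPM in the knockout library. These levels chose the cells and describe them only. Just inside and just outside the low border the cells had 244.3 and 244.7 CPM in the control and 289 and 297 CPM in the knockout library, and at the high border 2391 and 2391 against 2569 and 2563 CPM. No Ly6a UMI was seen in 104 control cells (4.09%) and 68 knockout cells (4.84%), all of them in the low group, where the median cell held 2 Ly6a UMIs. The highest single cell reached 11742 CPM among control and 12298 CPM among knockout cells. The groups are defined as ends of this ranking and are not named as cell types here.

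**Figure D1:**
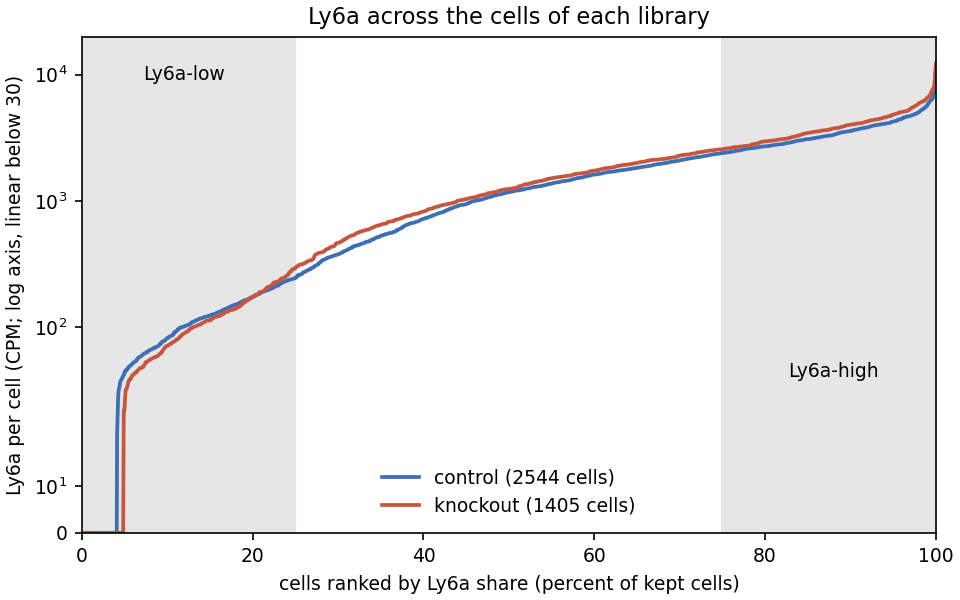
Ly6a per cell in CPM (log axis, linear below 30) for the kept cells of each library, ordered by their Ly6a share, as percent of kept cells; blue is control, red knockout, and grey bands mark the low and high groups. Both curves climb without a step, from cells with no Ly6a UMI (4.09% and 4.84%) to single cells at 11742 and 12298 CPM.

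Ly6a (ENSMUSG00000075602) lies on chromosome 15 from 74994877 to 74998031 on the minus strand of mm10, among related genes of the Ly6 family. Its neighbour Ly6c1, which encodes another lipid-anchored surface protein of the family, stood at 23.6 CPM in low and 779 CPM in high control cells, and at 30.2 and 1464 CPM in knockout cells, a log2 ratio of high over low of 5.04 and 5.60. Ly6g, a further copy, stood at 43.4 and 292 CPM in the control and 62.9 and 682 CPM in the knockout library. Ly6a, Ly6c1 and Ly6g are near-identical in parts, so how their reads were divided is uncertain. Ranking the cells by Ly6a, Ly6c1, Ly6c2 and Ly6g together, a setting chosen after the data were seen, gave 604 genes higher and 795 lower in both libraries, close to the counts below. Ly6d, known from stratified epithelium, stood at 27.2 and 233 CPM in control cells and at 29.4 and 316.5 CPM in knockout cells. Ly6e, which lies between Ly6d and Ly6a, was at 1177 and 1256 CPM in the control and 1604 and 1374 CPM in the knockout library, ratios below 1.5-fold. Ly6d, Ly6c1 and Ly6g were thus higher in the high cells, and Ly6e was not. Of 10 measured genes on the family list, 7 including Ly6a were higher and 1, Lypd6b on another chromosome, was lower in both libraries. The ratio of Ly6a itself was set by the choice of cells, so its place in this count supports nothing. Only 7 of the 10 reached 10 CPM in all 4 groups, and the others entered through the group where they are high.

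Of 7541 measured genes, those with 10 or more CPM in the high or low cells of both libraries, 595 (7.89%) were higher and 794 (10.5%) lower in Ly6a-high cells by 1.5-fold or more in both libraries. This is a rule of size and not a test. Both shares are the background for every list count below. Some genes are on more than 1 list, such as Anxa8, Sprr1a, F3, Krt7 and Krt19, so the list counts are not separate observations. By library, 954 genes (12.7%) were higher and 1123 (14.9%) lower in the control, and 877 (11.6%) higher and 1239 (16.4%) lower in the knockout library. The 595 shared genes are 62.4% of those higher in the control and 67.8% of those higher in the knockout library, and the 794 are 70.7% and 64.1% of those lower. The filter admits a gene through the group where it is high, and of 6444 genes at 10 CPM or more in all 4 groups 366 were higher and 437 lower. Only 15 genes (0.199%) passed 1.5-fold in opposite directions. The median log2 ratio of all measured genes was -0.03 and -0.09. With trimmed mean factors, which shift these medians by 0.105 and 0.152, 777 genes were higher and 610 lower, so which direction was more frequent depends on the scaling. Without the shared barcodes 530 were higher and 762 lower, of which 504 and 703 are among the genes above.

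**Figure D2:**
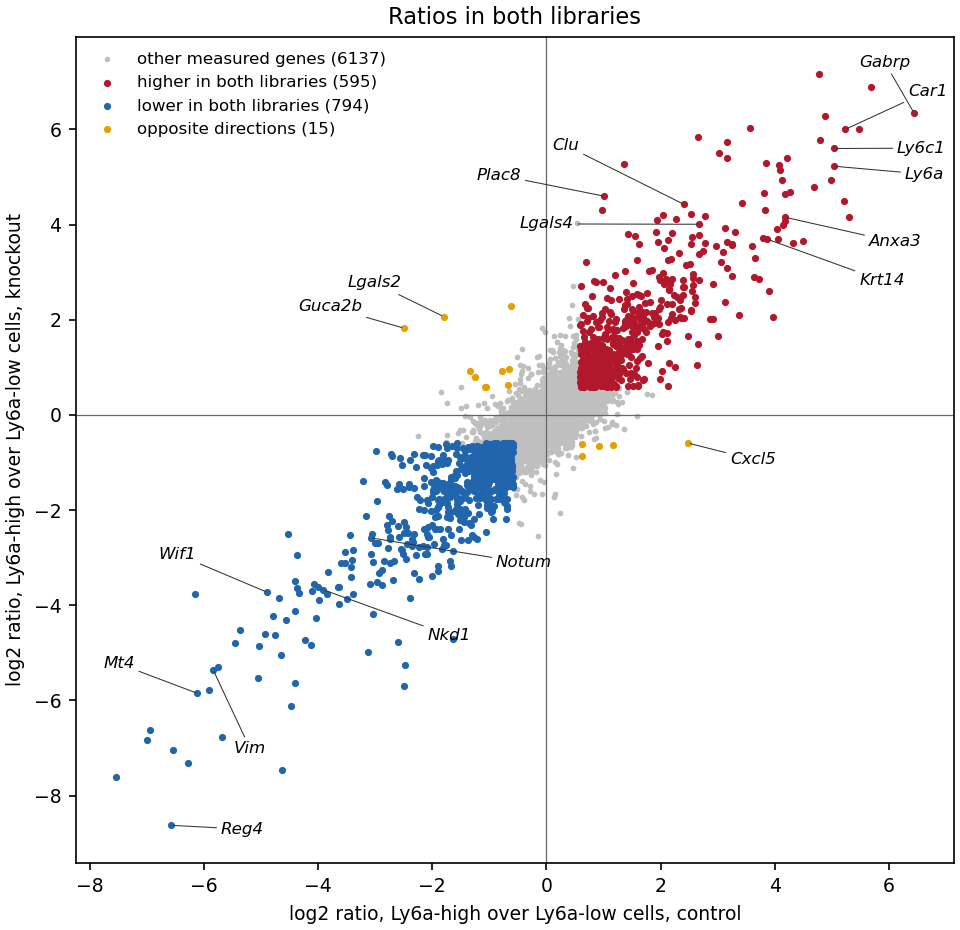
Log2 ratio of CPM, Ly6a-high over Ly6a-low cells, in the control library (x axis) and the knockout library (y axis), 1 point for each of 7541 measured genes, with named genes marked. The 595 genes higher in both lie in the upper right, the 794 lower in both in the lower left, and 15 lie in the other corners.

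Among genes of at least 20 CPM, Gabrp, a subunit gene of the GABA-A receptor, had the largest ratio by the library where it was smaller. It stood at 0.754 and 65.3 CPM in low and high control cells and at 1.33 and 109 CPM in knockout cells, 86.6-fold and 81.6-fold higher. Tnip3, an inhibitor of NF-kB signalling, stood at 0.679 and 35.0 CPM in the control and 0.533 and 63.4 CPM in the knockout library. The low groups thus held next to none of either RNA. Dynap, Cwh43, B3gnt3 (a glycosyltransferase gene) and the tetraspanin-like Tm4sf1 also had large log2 ratios, from 4.09 to 7.16, the last that of Cwh43 in the knockout library, where it and Tnip3 (6.89) were above Gabrp (6.35). Without shared barcodes the knockout log2 ratios of these 6 genes were smaller, from 4.08 for Tm4sf1 to 6.14 for Cwh43. The low knockout cells held only 3 UMIs of Cwh43, whose ratio there has an interval of 5.60 to 9.44 (95%, exact, for counting error only, as all intervals here). Khdc1a had log2 ratios of 4.18 and 4.65.

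Genes of the fetal-like and regenerating gut epithelium were mostly higher. Of 26 measured members of this list of 30, 19 were higher in both libraries and 0 lower. The median log2 ratio was 1.54 in the control and 2.10 in the knockout library, against -0.03 and -0.09 over all genes. Ly6a is among the 19 and in the medians, and its ratio was set by the choice of cells. In all 4 groups, 23 of the 26 reached 10 CPM, and the others entered through the group where they are high. The annexin gene Anxa3, whose product binds membrane phospholipids, stood at 56.8 and 1033 CPM in low and high control cells and at 46.4 and 824.5 CPM in knockout cells, 18.2-fold and 17.8-fold higher. The annexin genes Anxa8 (log2 ratios 4.18 and 4.06), Anxa5 (1.45 and 2.04) and Anxa1 (1.42 and 1.40) were higher with it. Clu, which encodes the chaperone clusterin and marks revival stem cells, stood at 29.3 and 155 CPM in the control and 38.4 and 826.5 CPM in the knockout library, so the high knockout cells stood apart from the other 3 groups. Its log2 ratio of 4.43 in the knockout library was 3.58 without shared barcodes. Sprr1a, a cornified envelope gene, stood at 2.34 and 28.4 CPM and at 37.8 and 442.5 CPM, and here even the low knockout cells lay above the high control cells. Its knockout log2 ratio of 3.55 was 2.56 without shared barcodes. The mesothelin gene Msln (1.39 and 2.58), the hyaluronan receptor gene Cd44 (1.78 and 1.09) and the interleukin-1 antagonist gene Il1rn (2.97 and 3.56) were also higher.

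Targets of YAP, the coactivator that acts with TEAD factors in regenerating epithelium, were divided. Of 13 measured, 7 were higher and 1 lower in both libraries, with medians of 0.71 and 1.52. In all 4 groups, 10 of the 13 reached 10 CPM, and the others entered through the group where they are high. The matricellular factor gene Ctgf stood at 1.89 and 33.4 CPM in the control and 2.93 and 46.7 CPM in the knockout library. Edn1, the endothelin precursor, stood at 96.6 and 490.5 CPM and at 86.3 and 357.5 CPM. The caveolin gene Cav2 (3.89 and 2.60) and the tissue factor gene F3 (1.92 and 3.85) were higher too, the latter at 3.05 in the knockout library without shared barcodes. Cyr61, a close relative of Ctgf and a classical YAP target, went the other way in the control, at 798 and 458 CPM, and stood at 691 and 582 CPM in the knockout library. Tead1 was the lower member, at 14.9 and 8.75 CPM and at 28.9 and 16.1 CPM.

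Keratins and genes of squamous epithelium were higher in most cases. Of 18 measured, 15 were higher and 2 lower in both libraries, with medians of 1.71 and 2.15. Only 11 of the 18 reached 10 CPM in all 4 groups, and the filter admitted the others through the group where they are high. The count and the medians thus partly follow from the filter. Krt14, the keratin of basal cells in stratified epithelium, stood at 9.96 and 146 CPM in low and high control cells and at 17.1 and 220.4 CPM in knockout cells. Krt6a (4.32 and 3.61), the crosslinking enzyme gene Tgm1 (4.05 and 3.91) and the cornified envelope gene Lor (3.72 and 2.85) had ratios of like size. Keratins of simple epithelium were higher as well, with Krt19 at 1909 and 6662 CPM and at 1834 and 7014 CPM, and Krt7 at 1058 and 3254 CPM and at 775.5 and 3453 CPM. The 2 lower members were Krt23 (-1.05 and -1.15) and the metallothionein gene Mt4. Krt5, the partner of Krt14, was below the filter, at 0.0754 and 1.2 CPM and at 0 and 0.713 CPM, and the basal cell factor gene Trp63 was at 0 in all 4 groups.

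Promoter sequences of 3 named genes higher in both libraries are shown because they hold the letters of an AP-1 site, TGAGTCA, in capitals. AP-1 is the factor of Fos and Jun proteins. The windows run from 250 bases before to 50 after a transcript start that RefSeq gives on GRCm38.p6, read on the gene's strand, and matches on both strands were counted. A gene with several starts has several windows and counts once if any of them matches. For Mndal and Cysrt1 the gene as GENCODE draws it begins farther upstream (1:173942491 and 2:25242452), so these windows lie inside it.

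Cysrt1, chr2:25239848-25240147, minus strand: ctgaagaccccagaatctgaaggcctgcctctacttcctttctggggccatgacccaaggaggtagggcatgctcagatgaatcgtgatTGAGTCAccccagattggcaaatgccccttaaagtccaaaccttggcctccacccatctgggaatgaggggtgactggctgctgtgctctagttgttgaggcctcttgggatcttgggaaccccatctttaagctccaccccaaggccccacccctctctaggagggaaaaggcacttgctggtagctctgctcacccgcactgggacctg
Mndal, chr1:173879909-173880208, minus strand: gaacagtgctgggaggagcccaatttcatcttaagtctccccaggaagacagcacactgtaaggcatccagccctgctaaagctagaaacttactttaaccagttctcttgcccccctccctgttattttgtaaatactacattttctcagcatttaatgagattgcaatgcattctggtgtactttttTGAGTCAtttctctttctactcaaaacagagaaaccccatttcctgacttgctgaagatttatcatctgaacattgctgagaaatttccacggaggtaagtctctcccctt
Sprr1a, chr3:92485832-92486131, minus strand: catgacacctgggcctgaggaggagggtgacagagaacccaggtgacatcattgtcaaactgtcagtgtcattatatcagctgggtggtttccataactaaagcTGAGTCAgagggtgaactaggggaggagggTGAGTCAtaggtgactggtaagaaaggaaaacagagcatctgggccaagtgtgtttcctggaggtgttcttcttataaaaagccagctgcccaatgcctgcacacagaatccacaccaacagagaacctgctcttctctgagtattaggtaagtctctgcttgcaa

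Cysrt1, a gene of the epidermal barrier, stood at 0.981 and 25.3 CPM in the control and 0.933 and 25.8 CPM in the knockout library, and Mndal, an interferon-inducible gene of the Ifi200 family, at 0.679 and 26.9 CPM and at 2.40 and 42.9 CPM. Of 595 genes higher in both libraries 466 had a window, and 55 of these (11.8%) held TGAGTCA. The share was 4.82% for the 623 lower genes with a window, 4.65% for 5983 measured genes and 5.20% for all 32851 windows. GGAATG, the letters of a TEAD site, occurred in 20.2% of the higher, 16.4% of the lower and 14.2% of the measured genes. Such matches describe letters and not binding. No window for Ly6a was used here.

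Genes of absorptive colonocytes were mostly higher. Of 19 measured, 15 were higher and 0 lower, with medians of 1.36 in the control and 3.72 in the knockout library, and 1, the galectin gene Lgals2, went in opposite directions. Only 11 of the 19 reached 10 CPM in all 4 groups. The filter admitted the others through the group where they are high, so the count and the medians partly follow from the filter. Lgals4, a lectin gene of the brush border, stood at 238 and 1515 CPM in low and high control cells and at 87.0 and 1398 CPM in knockout cells. Phgr1, a gene of differentiated intestinal epithelium, stood at 9.13 and 129 CPM and at 13.7 and 350 CPM. The adhesion molecule gene Ceacam1 stood at 26.3 and 259 CPM and at 15.9 and 226 CPM. Lgals4, Phgr1 and Ceacam1 were each 6.37-fold or more above the low cells in both libraries. Car1, a carbonic anhydrase gene of the colon surface, stood at 2.41 and 91.3 CPM and at 6.26 and 402 CPM, but without shared barcodes its knockout levels were 6.62 and 13.5 CPM and its log2 ratio was 1.03 in place of 6.0. Lypd8, whose product keeps flagellated bacteria off the colon surface, stood at 37.5 and 304 CPM and at 12.9 and 584.5 CPM, with a knockout log2 ratio of 5.50 that was 2.32 without shared barcodes. Krt20, a keratin of the crypt top, was below the filter in the control (6.56 and 6.94 CPM) and stood at 3.33 and 39.5 CPM in the knockout library.

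Interferon-stimulated genes were divided. Of 30 measured, 12 were higher and 3 lower in both libraries, with medians of 0.74 and 0.29. Only 20 of the 30 reached 10 CPM in all 4 groups, and the others entered through the group where they are high. Ifit3, which restrains translation of viral RNA, stood at 4.22 and 37.7 CPM in low and high control cells and at 3.20 and 39.9 CPM in knockout cells. Oasl2, of the oligoadenylate synthetase family, stood at 4.98 and 41.5 CPM and at 4.93 and 45.8 CPM, with a knockout log2 ratio of 3.22 that was 2.37 without shared barcodes. Both were at nearly the same level in the 2 libraries. The Ifi200 family genes Ifi202b (4.98 and 4.93, or 3.66 in the knockout library without shared barcodes) and Ifi203 (5.21 and 4.50) were among the 15 genes with the largest ratios, and Mndal and Ifi203 overlap on the same strand. The ubiquitin-like modifier gene Isg15 stood at 73.2 and 324 CPM and at 113 and 240.1 CPM. The 3 lower members were Ifitm3 (4872 and 3025 CPM, 4554 and 2072 CPM), Stat3 (-0.88 and -1.25) and Ifi27l2a (-1.09 and -1.21). Antigen presentation genes of MHC class I gave 1 higher of 15, near the background of 7.89% of all genes. It was H2-K1 (161 and 347 CPM, 117 and 284 CPM), and B2m did not reach 1.5-fold (0.40 and 0.42).

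The promoters of 3 of the interferon-stimulated genes are shown for the letters of the interferon-stimulated response element (GAAA, any 2 bases, GAAA), which are in capitals as read on the opposite strand. In Gbp3 the 2 matches overlap.

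Ifit3, chr19:34583279-34583578, plus strand: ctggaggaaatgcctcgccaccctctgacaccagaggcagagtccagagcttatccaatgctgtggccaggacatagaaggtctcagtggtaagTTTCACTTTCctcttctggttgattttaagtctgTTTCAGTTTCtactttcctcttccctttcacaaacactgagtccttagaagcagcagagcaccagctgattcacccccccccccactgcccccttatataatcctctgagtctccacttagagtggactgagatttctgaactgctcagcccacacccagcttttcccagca
Ifit3b, chr19:34607707-34608006, plus strand: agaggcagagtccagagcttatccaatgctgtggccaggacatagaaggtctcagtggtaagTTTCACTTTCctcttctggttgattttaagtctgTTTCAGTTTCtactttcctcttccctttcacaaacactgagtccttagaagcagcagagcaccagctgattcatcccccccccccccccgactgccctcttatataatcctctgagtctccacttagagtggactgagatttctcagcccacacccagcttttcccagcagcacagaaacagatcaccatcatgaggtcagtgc
Gbp3, chr3:142559794-142560093, plus strand: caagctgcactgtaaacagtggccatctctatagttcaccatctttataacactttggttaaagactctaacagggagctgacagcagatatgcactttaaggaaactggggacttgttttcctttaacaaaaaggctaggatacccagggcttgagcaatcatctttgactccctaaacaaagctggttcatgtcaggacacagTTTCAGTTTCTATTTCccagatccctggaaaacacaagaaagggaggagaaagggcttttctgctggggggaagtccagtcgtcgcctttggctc

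Of the 12 higher genes 10 had a window, and 6 of these (60%) held the letters, against 3.44% of all windows and 3.76% of measured genes. The list is one of interferon-stimulated genes, and the share for its members without a higher call was not computed. The 60% therefore describes the list and says nothing about Ly6a-high cells. Over all genes with a window, the share was 5.37% of those higher in both libraries and 3.37% of those lower. Ifit3 and Ifit3b are close copies, as their windows show, so that reads of the 2 genes may be shared. Ifit3b stood at 0.830 and 13.0 CPM in the control and 4.66 and 19.4 CPM in the knockout library, and its call was lost without shared barcodes, at a knockout log2 ratio of 0.76. Gbp3, a guanylate-binding GTPase gene, stood at 4.15 and 18.6 CPM and at 3.33 and 22.3 CPM. These matches, too, are descriptions of the letters.

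Chemokines and ligands made by epithelium were higher in part. Of 20 measured NF-kB targets and chemokines, 6 were higher and 1 lower, against 7.89% and 10.5% of all measured genes. In all 4 groups, 16 of the 20 reached 10 CPM, and the others entered through the group where they are high. Ccl20, which attracts cells bearing CCR6, stood at 11.5 and 86.4 CPM in low and high control cells and at 8.79 and 59.0 CPM in knockout cells, and Cxcl16 at 56.8 and 303 CPM and at 76.2 and 489 CPM. Cxcl14 was the lower member (24.8 and 0.602 CPM, 73.8 and 3.21 CPM). Among 19 MAPK and EGFR genes, 3 were higher and 3 lower, small counts beside that background, and nothing is read from them about the list. The EGFR ligand genes Areg (244 and 1025 CPM, 92.2 and 626 CPM) and Btc (19.9 and 61.3 CPM, 12.8 and 62.0 CPM) were higher. Hbegf, another ligand gene, did not reach 1.5-fold (198 and 171 CPM, 263 and 248 CPM). The feedback gene Spry1 (-1.08 and -1.72) and the transcription factor gene Etv5 (37.2 and 4.26 CPM, 105 and 3.30 CPM) were lower. Of 17 adhesion and matrix genes, 8 were higher, among them the integrin genes Itga3 (1.82 and 1.87) and Itgb6 (1.51 and 2.50, or 1.86 in the knockout library without shared barcodes), and 3 lower, Vim, Plat and Thbs1. Here 14 of the 17 reached 10 CPM in all 4 groups. Cdh1, the E-cadherin gene, was higher in both libraries (0.74 and 0.79) but not without shared barcodes.

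In the other direction stood a group of genes that Ly6a-high cells nearly lacked. Mt4, a metallothionein gene otherwise known from stratified squamous epithelium, stood at 516 and 7.45 CPM in low and high control cells and at 2009 and 34.9 CPM in knockout cells, 69.3-fold and 57.6-fold lower in the high cells. Its neighbour Mt3 stood at 471 and 8.75 CPM and at 1533 and 39.1 CPM. The broadly expressed metallothioneins Mt1 (717 and 460 CPM, 1182 and 740.1 CPM) and Mt2 (367 and 188 CPM, 701 and 282 CPM) were lower by less. Vim, the intermediate filament gene of mesenchymal cells, stood at 589 and 10.3 CPM and at 1188 and 29.0 CPM, while the fibroblast genes Col1a1, Col1a2 and Col3a1 were at 0 in all groups. Mt3, Mt4 and Vim were thus each highest in the low knockout cells and lowest in the high control cells. Cd177, a surface glycoprotein gene of neutrophils and some epithelia, stood at 60.4 and 0.324 CPM in the control. It stood at 52.1 CPM in low knockout cells and had no UMI in high ones, which makes it at least 195-fold lower against a floor of 3 counts in that group. Ceacam10 stood at 94.2 and 0.740 CPM and at 90.7 and 0.802 CPM. The cell cycle inhibitor gene Cdkn1c (120 and 5.65 CPM, 193 and 11.1 CPM) and Spock2, Upk3a, Pdgfrl, Tnni1, Apoc4 and Gsdma had log2 ratios between -3.89 and -5.91.

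Feedback inhibitors of the Wnt pathway were lower in Ly6a-high cells. Of 16 measured Wnt genes, 10 were lower and 3 higher in both libraries, with medians of -0.77 and -0.96. In all 4 groups, 13 of the 16 reached 10 CPM, and the others entered through the group where they are high. The count and the medians thus partly follow from the filter. Nkd1, an inhibitor of Dishevelled, stood at 1416 and 94.4 CPM in low and high control cells and at 1633 and 128 CPM in knockout cells. Wif1, a secreted protein that binds Wnt, stood at 778 and 26.2 CPM and at 1197 and 90.5 CPM. Notum, a hydrolase that removes the lipid of Wnt, stood at 580 and 68.9 CPM and at 623 and 104 CPM. Nkd1, Wif1 and Notum were thus 6.0-fold to 29.7-fold lower in the high cells over both libraries. Prox1 (83.7 and 6.89 CPM, 86.1 and 9.90 CPM), Lef1 (-2.35 and -2.75) and the receptor-degrading ligase genes Znrf3 (-1.72 and -2.39) and Rnf43 (-0.88 and -0.67) were lower with them. Axin2, the classical Wnt target, was lower by little, at 125 and 79.1 CPM and at 155 and 88.3 CPM, a call that was lost when cells were thinned to 5000 UMIs, ranked within depth bins, ranked into the top and bottom 50% or scaled by trimmed mean factors. The 3 higher members were Cd44, Ccnd1 (198 and 809 CPM, 177 and 333 CPM) and Tspan8 (103 and 372 CPM, 38.8 and 320.0 CPM). Of the 10 lower genes 8 had a window, and 1 of these held the letters of a TCF/LEF site (CTTTGAA or CTTTGAT). The share was 7.09% of measured genes with a window and 8.65% of all windows.

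Stem cell genes of the crypt were divided. Of 19 measured, 7 were lower and 2 higher, with medians of -0.57 and -0.47. In all 4 groups, 14 of the 19 reached 10 CPM, and the others entered through the group where they are high. Of the 7 lower genes, Znrf3, Sp5, Rnf43 and Axin2 are also among the lower Wnt genes above, so the 2 counts overlap. Smoc2, a matrix protein gene of crypt base cells, stood at 333 and 46.3 CPM in low and high control cells and at 234 and 27.7 CPM in knockout cells, and the receptor gene Tnfrsf19 at 27.3 and 8.47 CPM and at 46.4 and 10.3 CPM. Ascl2, the transcription factor of crypt stem cells, stood at 101 and 104 CPM and at 22.9 and 35.1 CPM, so it did not follow the Wnt inhibitors. Lgr5, the receptor that defines crypt stem cells, was below the filter in all 4 groups (5.05 and 4.26 CPM, 5.73 and 1.78 CPM), and Olfm4 was at 0. The transporter gene Slc12a2 (1.73 and 2.35, or 1.72 without shared barcodes) was higher.

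Some secretory cell genes were nearly absent from Ly6a-high cells. Of 5 measured goblet and secretory progenitor genes, 4 were lower, and of 4 measured genes of Paneth-like cells 3, or 1 of 2 without shared barcodes. Reg4 is among the lower genes of both lists. Only 1 gene of each list reached 10 CPM in all 4 groups, so most entered through the low cells where they are high, and the counts support nothing by themselves. Reg4, a lectin gene of deep crypt secretory cells, stood at 190.2 and 1.99 CPM in the control and 141 and 0.357 CPM in the knockout library. In low cells, the 10% of cells with the most Reg4 held 81.8% and 92.4% of its UMIs. Ang4, an antimicrobial ribonuclease gene, stood at 62.8 and 0.509 CPM and at 17.4 and 0.178 CPM, the last from 2 UMIs (log2 ratio -6.61, interval -9.67 to -4.73). At 5000 UMIs per cell it was seen in 1.42% of low and 0.157% of high control cells, and in 0.285% of low knockout cells. The low knockout cells without a shared barcode held 0 UMIs of it. Tff3, a goblet cell peptide gene, stood at 33.6 and 1.25 CPM and at 15.3 and 0.624 CPM, and its knockout ratio changed sign without shared barcodes (1.75). Pnliprp2, a lipase gene, had no call without them, at a control log2 ratio of -1.22 in place of -4.32. No gene of the enteroendocrine list was measured.

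Immediate early genes, which stress and dissociation can also induce, were lower in part. Of 27 measured, 10 were lower and 1 higher, with medians of -0.58 and -0.40. Nr4a1, a nuclear receptor gene, stood at 319 and 38.6 CPM in low and high control cells and at 392.5 and 69.3 CPM in knockout cells, and Atf3 at 837 and 278 CPM and at 1074 and 448 CPM. Jun (844 and 378 CPM, 958 and 432 CPM) was lower, whereas Fos (359 and 293 CPM, 300.4 and 334 CPM) was not. Klf2 and Egr2 were lower (-1.68 and -1.37, -2.73 and -2.57), and Ier5 was the higher member. Heat shock genes gave 0 higher and 0 lower of 15. Of 18 BMP, TGF-beta and Notch genes, 7 were lower and 2 higher. Only 10 of the 18 reached 10 CPM in all 4 groups, and the others entered through the group where they are high. The ligand gene Bmp2 stood at 27.5 and 7.36 CPM and at 165 and 37.6 CPM, and the Notch target Hes1 at 927 and 315 CPM and at 1630 and 679.7 CPM. The Notch ligand gene Jag1 was higher (1.40 and 1.54). The endoderm factor gene Foxa2 was lower (-2.59 and -4.77), a call lost when cells were ranked within depth bins, and Isx, a regulator of vitamin A uptake in the gut, was higher (2.45 and 3.15).

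Several lists held few genes with a call in both libraries. The nuclear-encoded respiratory chain gave 0 higher and 0 lower of 43, mitochondrially encoded genes 0 and 0 of 12, and ribosome biogenesis and MYC targets 1 and 0 of 27. Glycolysis and hypoxia genes had medians of -0.32 in the control and 0.52 in the knockout library, and of 25 genes only Pfkp was higher in both, a call lost when cells were ranked within depth bins. In the control 1 was higher and 7 were lower, and in the knockout library 10 were higher and 0 lower, a difference between the libraries that was not tested. Of 20 p53 targets, 4 were higher (2 without shared barcodes) and 1 lower in both libraries. By library, 10 were higher in the control, against 12.7% of all genes, and 5 in the knockout library, against 11.6%, and Cdkn1a, the p21 gene, did not reach 1.5-fold (0.28 and 0.21). Of 22 chromatin enzyme genes, the histone methyltransferase gene Kmt5a was higher (34.9 and 61.7 CPM, 31.2 and 57.8 CPM) and Kdm6b, Hdac1 and Ezh2 were lower, numbers near the background of 7.89% and 10.5% of all genes. The call of Kmt5a was lost when cells were ranked within depth bins, and that of Ezh2 with trimmed mean factors. Hdac1 stood at 191 and 98.8 CPM and at 258 and 126 CPM. Trmt112 stood at 186 and 223 CPM in the control and 168 and 163 CPM in the knockout library.

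Most of these differences ran step by step through the ranking. Of the 595 genes higher in both libraries, 438 (73.6%) stood higher in each rank group than in the one before in both, and 608 of 794 lower genes (76.6%) stood lower in each. These genes were chosen by the difference between the ends of the ranking, which favours such an order in advance. The share over all measured genes was not computed, so these shares describe the chosen genes only. Krt14 stood at 9.96, 35.3, 81.9 and 146 CPM over the control rank groups and at 17.1, 76.7, 181 and 220.4 CPM in the knockout library. Wif1 stood at 778, 347, 118 and 26.2 CPM and at 1197, 579, 300 and 90.5 CPM. In cells thinned to 5000 UMIs, an Nkd1 UMI was seen in 98.6%, 87.1%, 55.8% and 25.6% of control cells and in 97.7%, 86.3%, 61.1% and 27.9% of knockout cells. Nkd1 thus was lower in each rank group than in the one before it also in the share of cells at equal depth.

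Cell cycle genes depended on how depth was treated. In the plain ranking 0 of 26 S phase genes and 1 of 23 G2 and M phase genes were lower in the high cells of both libraries, and 0 were higher. When cells were ranked within 5 bins of equal depth, where high and low cells had median depths of 25259 and 25060 UMIs in the control library, 14 of 28 S phase genes and 31 of 33 G2 and M phase genes were lower. The medians of the G2 and M phase list were then -1.57 and -1.70, in place of -0.30 and -0.38. With cells thinned to 5000 UMIs and ranked on the thinned UMIs they were 0.20 and 0.09, with 0 of 19 genes lower. The proliferation marker gene Mki67 was the 1 lower gene of the plain ranking (20.2 and 12.1 CPM, 11.6 and 6.42 CPM). Its log2 ratios were -0.74 and -0.85 in that ranking and -1.54 and -2.36 within depth bins, and its call was lost with thinned cells. No statement on the cell cycle of Ly6a-high cells therefore holds in all of these settings.

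In the plain ranking mitotic genes were highest in the middle. In both libraries 14 genes were 1.5-fold or more higher in both middle rank groups than in either end, with 34 such genes in the control and 22 in the knockout library. They are Aurkb, Birc5, Ccna2, Ccnb1, Ccnb2, Cdc20, Cdca8, Cenpa, Cenpf, Hist1h2ap, Nusap1, Racgap1, Tpx2 and Ube2c, of which Hist1h2ap, a histone gene, is the 1 gene not of mitosis, and they were picked out after their values were seen. Ccnb1, which encodes cyclin B1, stood at 22.6, 57.9, 63.1 and 24.9 CPM over the control rank groups and at 20.7, 55.9, 40.8 and 15.9 CPM in the knockout library. Median depth over the same groups was 19441, 25205, 27942 and 29415 UMIs in the control and 20458, 24114, 27640 and 30203 UMIs in the knockout library. Ranked within depth bins, 0 genes had the pattern in either library, and Ccnb1 stood at 53.1, 52.0, 50.3 and 15.5 CPM and at 54.7, 50.1, 13.3 and 14.4 CPM. At equal depth its level was thus lowest in the high group of the control and in both upper rank groups of the knockout library, and 6 of the 14 genes were lower in each rank group than in the one before in both libraries. Without shared barcodes 9 genes had the middle pattern, 6 of them among the 14. Mcm2, a replication gene of S phase, differed less over the plain rank groups, at 74.2, 99.0, 82.6 and 56.7 CPM and at 35.6, 46.3, 37.9 and 27.0 CPM.

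**Figure D3:**
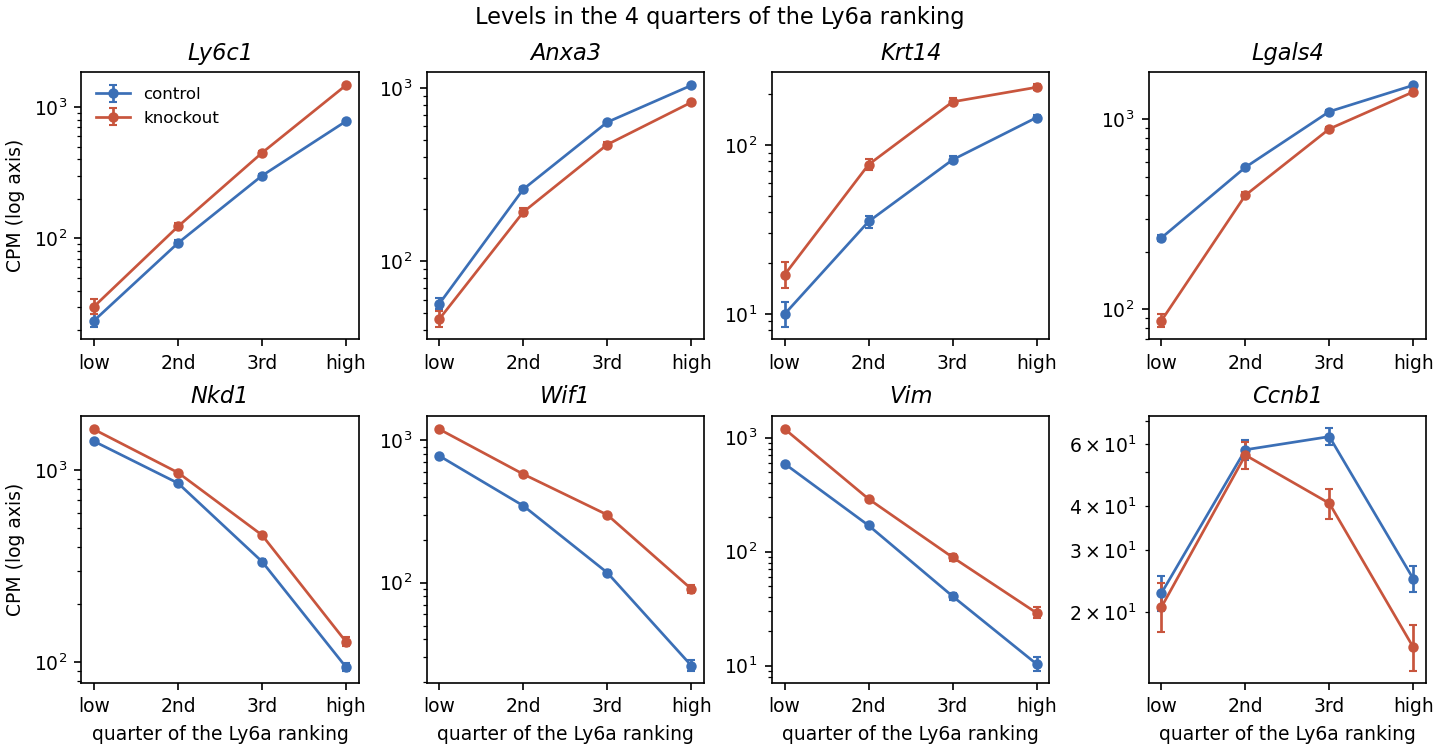
CPM (log axis) of 8 genes in the 4 rank groups of Ly6a, each 25% of cells, from low to high, blue for control and red for knockout; bars are exact 95% Poisson intervals for counting error. Ly6c1, Anxa3, Krt14 and Lgals4 climb, Nkd1, Wif1 and Vim decline, and Ccnb1 is highest in the middle, which it was not when cells were ranked within bins of equal depth.

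Neither group was uniform. At 5000 UMIs per cell Anxa3 was seen in 96.5% of high control and 93.7% of high knockout cells, against 19.97% and 16.2% of low cells. The 10% of cells with the most Anxa3 held 27.4% and 25.1% of its UMIs in the high groups, where that share was 24.1% and 20.9% for Ly6a itself. Car1 was the opposite case, since these 10% held 99.2% and 99.6% of its UMIs. Lypd8 was nearly as uneven, at 90.4% and 98.8%. Single squamous and colonocyte genes were set side by side in the same cells. At 5000 UMIs per cell, Krt14 was seen in 24.5% and Car1 in 5.19% of 636 high control cells, with 2 cells positive for both, and in 39.6% and 5.98% of 351 high knockout cells, with 5 positive for both. These are 0.314% and 1.42% of cells, where the products of the single shares are 1.27% and 2.37%, and few cells carry Car1, whose knockout level depends on shared barcodes as given above. In low cells Krt14 was seen in 3.46% and 6.27%, and Car1 in 0.472% and 2.85%. Tgm1 and Phgr1, by contrast, were seen together in 73 high control cells, 11.5%, where the product of the single shares is 11.9%, and in 73 high knockout cells, 20.8%, where it is 19.6%. Mt4 was seen in 22.96% of low control and 64.4% of low knockout cells at this depth, against 2.04% and 7.69% of high cells, and so was less common in low cells than Nkd1. Of low cells with a Vim UMI, 31.6% in the control and 72.5% in the knockout library also had an Mt4 UMI, against 10.4% and 37.8% of those without, again at 5000 UMIs.

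A few genes depended on the library. Guca2b, the uroguanylin gene of differentiated epithelium, stood at 16.97 and 3.01 CPM in low and high control cells and at 4.13 and 14.6 CPM in knockout cells, opposite directions. Its knockout log2 ratio of 1.82 was 0.38 without shared barcodes, which ends the call. Lgals2 stood at 53.03 and 15.2 CPM and at 9.73 and 40.7 CPM, and kept its directions without shared barcodes (-1.87 and 1.89). The chemokine gene Cxcl5 stood at 11.4 and 63.8 CPM in the control and 141 and 93.2 CPM in the knockout library, so the low knockout cells held the most. Its knockout log2 ratio of -0.59 turned positive, 0.24 and 0.14, when cells were thinned or ranked within depth bins. Plac8 stood at 54.5 and 111 CPM and at 7.46 and 180.2 CPM, and Ms4a8a at 44.6 and 64.5 CPM and at 7.73 and 127 CPM, with a knockout log2 ratio of 4.03 that was 3.17 without shared barcodes. In both, the low knockout cells were below all other groups. The diamine oxidase gene Aoc1 was lower in both libraries but by unlike amounts, at 20.5 and 3.66 CPM and at 73.5 and 1.43 CPM. These differences between the libraries rest on 1 library each and were not tested.

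**Figure D4:**
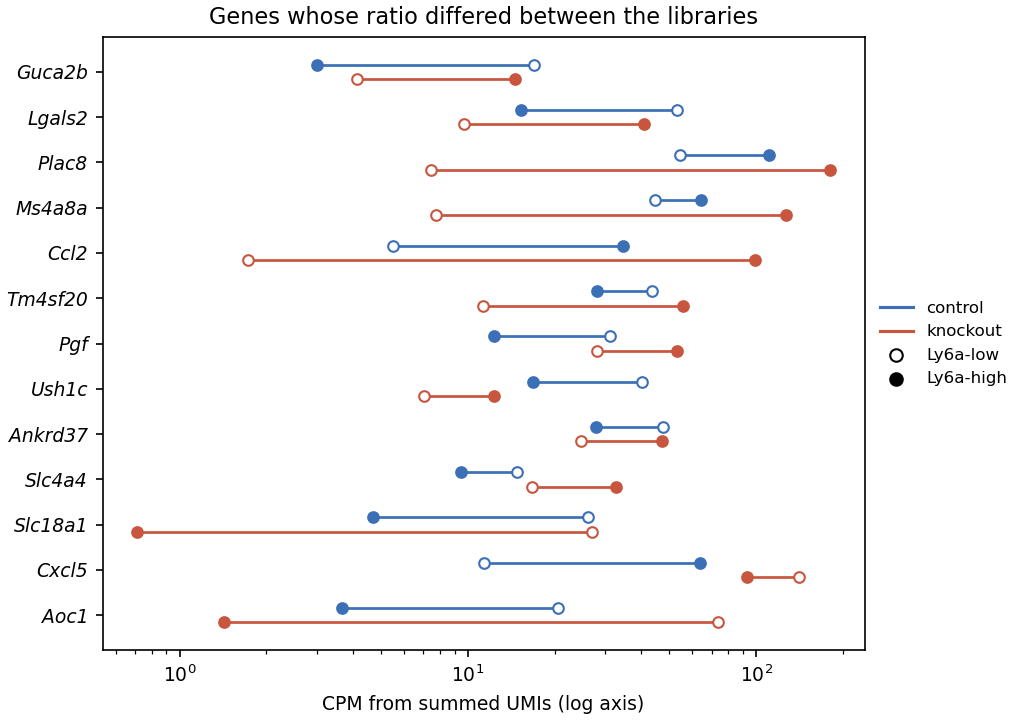
CPM (log axis) in Ly6a-low (open) and Ly6a-high cells (filled) for genes whose ratio differed between the control (blue) and knockout (red) libraries. For Guca2b and Lgals2 the filled point lies left of the open one in the control and right of it in the knockout library; for Cxcl5 it is the reverse.

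Set side by side across genotypes, the 2 groups differed in unlike numbers of genes. In Ly6a-high cells 689 genes (9.14%) were 1.5-fold or more higher and 995 (13.2%) lower in the knockout than in the control library, and in Ly6a-low cells 534 (7.08%) and 514 (6.82%). In both groups alike 245 (3.25%) were higher and 279 (3.70%) lower, and 44 (0.583%) went in opposite directions. Ly6a differed little, with log2 ratios of knockout over control of 0.13 in high and -0.06 in low cells. Clu had a ratio of 2.42 in high cells and 0.39 in low cells. Cxcl5 had ratios of 0.55 and 3.63, so its difference lay at the low end. Sprr1a was higher in the knockout library at both ends (3.96 and 4.02), as were Mt4 (2.23 and 1.96) and Vim (1.49 and 1.01), genes that stand at opposite ends of the Ly6a ranking. Ascl2 (-1.56 and -2.13) and Cdx2 (-1.55 and -2.01), a transcription factor gene of intestinal identity, were lower in the knockout library at both ends. Shared barcodes, depth and the 1 library per genotype limit these values as above.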

How the data were processed

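Libraries were made with 10x Chromium 3′ version 2 chemistry, per the labels' protocols. The authors deposited raw UMI counts for each gene in each barcode, produced per the file headers by Cell Ranger 3.1.0, with mm10 as genome (per the submitters' processing notes). No source states the annotation release. GENCODE M21, used for positions, held 30934 of the 31053 identifiers. The cell groups, the 36 gene lists and the rule for named genes were chosen with earlier results of these data known.

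Cells were filtered (1000 genes, 5000 UMIs, 20% mitochondrial UMIs) and ranked in each library by Ly6a UMIs over all UMIs, with ties in barcode order. Counts were summed over each 25% of cells and scaled to CPM. A gene was measured at 10 CPM in the high or low group of both libraries, and called at 1.5-fold. A group with no UMI took a floor of 3 counts. The 95% intervals are exact ones for counting error. No caller of doublets was run, and 1 alternative leaves out the 52 control and 16 knockout cells with the most UMIs. No clusters were made.

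Genes were named by rule: those of KMT9 and Ly6a, the 15 leading ratios each way at 20 CPM without predicted genes, up to 4 members per list, 6 genes with opposite directions, 8 that differ most between libraries and a few fixed genes. Other genes named were chosen after their values were seen. A few genes of the rule are not reported here. For shares, cells were thinned to 5000 UMIs. The sums were tested on simulated data. Alternatives changed the cell filter, the share of cells, the ranking, depth, scaling and thresholds (Python 3.11.15, numpy 2.4.6, scipy 1.17.1, pandas 2.3.3, matplotlib 3.10.9, R 4.3.3, and edgeR 4.0.16 for trimmed mean factors only).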

Additional observations from a re-analysis of the deposited data

Results flagged for a closer look

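The ratio of Ly6a-high over Ly6a-low cells went in opposite directions in the libraries for 8 of the genes named by rule. The knockout minus the control log2 ratio was 4.32 for Guca2b, 3.87 for the galectin gene Lgals2, 2.26 for Pgf, a growth factor gene of the VEGF family, 2.05 for Ush1c, a scaffold gene of the brush border, 1.70 for Ankrd37, a gene induced by low oxygen, 1.62 for the bicarbonate transporter gene Slc4a4, 2.92 for the tetraspanin-like Tm4sf20 and -3.08 for the chemokine gene Cxcl5. Pgf stood at 31.2 and 12.4 CPM in low and high control cells and at 28.0 and 53 CPM in knockout cells, and Ush1c at 40.1 and 16.8 CPM and at 7.06 and 12.3 CPM. Of the 8, 7 were lower in high control cells and higher in high knockout cells, and Cxcl5 was the reverse. The 8 were picked by rule and do not stand for all genes with opposite directions. Among the others, Ckap2, Tspan1, Ccpg1 and Rfx7 had the directions of Cxcl5, and Gch1, Grap and Nbl1 those of the 7. Tm4sf20 stood at 43.4 and 28.1 CPM in low and high control cells and at 11.3 and 55.6 CPM in knockout cells, with log2 ratios of -0.63 and 2.30, and its knockout log2 ratio was 0.86 without shared barcodes. Its control log2 ratio was -0.13 when cells were ranked within depth bins, which ends the call. Without shared barcodes the knockout log2 ratio was 0.38 for Guca2b and 0.11 for Ush1c, which ends both calls, and 1.89 for Lgals2. With 1 library per genotype these differences were not tested.

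Barcodes that did not pass the cell filter also held Ly6a, at 1271 CPM (interval 1219 to 1325) in the control and 1377 CPM (1311 to 1445) in the knockout library. These values come from data outside the comparison and lie between the levels of the 2 middle rank groups of kept cells. The 1074 and 673 barcodes held 1750985 and 1184509 UMIs.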

How the results depend on the processing

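No paired analysis was possible because 1 matrix was deposited per genotype and its cells are not mapped to the labels' records. The counts of 595 higher and 794 lower genes stayed within 1.5-fold under 13 of 17 other settings each. They were 324 and 372 with the top and bottom 50% of cells, 261 and 246 at 50 CPM, 1269 and 2106 with no filter and 291 and 350 at 2-fold. A like count does not mean the same genes. Ranking within depth bins kept 468 (78.7%) of the 595 higher and 544 (68.5%) of the 794 lower genes. Thinning to 5000 UMIs kept 459 (77.1%) and 587 (73.9%). The 15 genes with opposite directions became 35 with the top and bottom 10%, 5 with 50%, 36 with cells thinned, 6 with ranking within depth bins, 24 at 5 CPM, 3 at 50 CPM, 193 with no filter and 2 at 2-fold. Knockout ratios changed sign for Kif20a (1.11 with 10%, 2.82 in cells low in cell cycle UMIs, 0.38 without shared barcodes), Mki67 (0.52 with 10%), Prim1 (0.072 with 10%, 0.53 in cells low in cell cycle UMIs), E2f1 (0.78 in the latter), Cxcl5 (0.24 thinned, 0.14 within depth bins), Ascl2 (-0.22 within depth bins) and Tff3 (1.75 without shared barcodes). So did the control ratio of Ptgs1 (-0.12 within depth bins) and the knockout median of mucosal defence genes (-0.20 at 5 CPM). The causes were not tested. Ranking within depth bins moved 40 control and 55 knockout ratios of 168 named genes by more than 1.5-fold, and leaving out shared barcodes moved 1 and 41 (of 167 in the knockout library). Of 65 named genes higher and 50 lower in both libraries, 61 and 47 kept the call without shared barcodes. Lost were Ccng1, Cdh1, Ifit3b, Odc1, Ang4, Pnliprp2 and Tff3. Depth limits genes near the floor of 3 counts, such as Cwh43 in low and Ang4 in high knockout cells, and 1 library per genotype limits all.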

Other observations

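Genes of lipid and redox metabolism, not described above, are given here as values. Of 27 measured cholesterol and fatty acid synthesis genes, 4 were lower and 1 higher in Ly6a-high cells of both libraries, near the background of 10.5% lower and 7.89% higher over all genes. The desaturase gene Scd1 stood at 20.4 and 5.09 CPM in low and high control cells and at 34.4 and 6.95 CPM in knockout cells, and Fads1 at 21.7 and 5.46 CPM and at 20.3 and 6.60 CPM. Me1, which makes NADPH, was higher, at 6.86 and 16.5 CPM and at 9.86 and 25.9 CPM. Of 19 metallothionein and NRF2 target genes, 5 were higher and 5 lower, or 3 and 4 without shared barcodes. The higher ones were the cystine transporter gene Slc7a11 (0.93 and 1.04), the glutathione peroxidase gene Gpx2 (1.16 and 0.67), Gsto1, Hmox1 and the retinal dehydrogenase gene Aldh1a1 (2.48 and 1.66). The glutathione transferase gene Gstm1 was lower with the metallothioneins, at 143 and 26.1 CPM and at 157 and 19.3 CPM, so NRF2 targets stood on both sides.

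Other genes had large ratios but were outside the rule for named genes and were chosen after their values were seen. Sprr2a3, a cornified envelope gene, stood at 15.2 and 180.4 CPM in the control and 6.66 and 438 CPM in the knockout library. The growth factor gene Ptn stood at 599.5 and 42.3 CPM and at 830.4 and 83.8 CPM, and the transcriptional cofactor gene Cited1 at 199 and 11.9 CPM and at 240.1 and 20.3 CPM.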
